A study of Mus musculus with 6 samples.

Results

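The 10 genes described here were Asns, Ddit3, Ddit4, Ppp1r15a, Fgf21, Nupr1, Atf5, Trib3, Chac1 and Sesn2, transcripts of the integrated stress response and the hormone Fgf21, in liver tumors of mice with and without Top1mt. They were selected from 30236 listed genes by symbol, by someone who knew earlier results of these libraries, the contrast of knockout against wild type included. All 10 were found once in the table, and all 10 passed the filter that left 22677 genes for testing. Because the contrast had a part in the choice, the differences between genotypes and the correlations over the 6 libraries are given as descriptions.

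RNA from 3 hepatocellular carcinomas of WT mice and 3 of Top1mt-/- mice (Top1mt-KO) was sequenced. Every animal was a male C57BL/6 mouse that had received the carcinogen diethylnitrosamine at postnatal day 14. From week 8 carbon tetrachloride, which injures hepatocytes, was given for 14 weeks, and tumors were collected at 22 weeks. There was no untreated liver among the samples used here, so each value belongs to a tumor raised by both agents. The knockout is present in every cell of the animal, and the mice were littermates from heterozygous parents. The labels do not say whether the 3 tumors of a genotype came from 3 animals, so p-values measure only the spread between these samples.

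The integrated stress response begins with kinases that phosphorylate the translation factor eIF2α when amino acids, haem or protein folding fail or when viral RNA is present. General translation then falls while the mRNA of the transcription factor ATF4 is translated better, so that ATF4 protein can change with little change of its mRNA. ATF4 and its partners induce genes for amino acid supply, for cell death and for ending the response, and in cells with impaired mitochondria the same program is a well known source of FGF21, a hormone made mainly by the liver.

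The promoters of the members were read first, as their letters do not depend on the expression values. The genes were listed as effectors of ATF4, so finding its element among them is no independent support. ATF4 pairs with C/EBP proteins on a composite element, which was searched for as TGATGNAA on both strands, from 250 bases before the annotated start to 50 bases from the start on (RefSeq, GRCm38.p6). The letters were found in 5 of the 10 members (5 of their 11 windows), and in 3.97% of the 32851 windows of all genes. The windows below surround the match, shown in capitals, in the 4 members in which it lay before the start, and each is written 5′ to 3′ on the strand of its gene. Asns is at chr6:7693199-7693258 (minus strand), Chac1 at chr2:119351023-119351082 (plus strand), Fgf21 at chr7:45615596-45615655 (minus strand) and Nupr1 at chr7:126625547-126625606 (minus strand).
Asns: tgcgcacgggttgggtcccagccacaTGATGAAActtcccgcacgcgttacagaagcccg
Chac1: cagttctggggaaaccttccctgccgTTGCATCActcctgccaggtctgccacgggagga
Fgf21: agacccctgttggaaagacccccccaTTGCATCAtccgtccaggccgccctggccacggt
Nupr1: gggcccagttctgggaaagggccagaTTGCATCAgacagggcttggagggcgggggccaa

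The same 8 letters, TTGCATCA, occurred in Chac1, Fgf21 and Nupr1, where the element reads on the strand opposite to the gene, beginning 193, 139 and 110 bases before the start. In Asns it read with the gene as TGATGAAA, 23 bases before the start. The match in Trib3, TTACATCA, lay 15 bases after the start. The cAMP response element TGACGTCA, a site of the wider ATF and CREB family, was found in Ppp1r15a alone, 12 bases before the start, and in 1.79% of all windows. The ER stress element, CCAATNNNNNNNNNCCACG, was found in 0 of the 10 members and in 0.119% of all windows. A match is a run of letters and not a bound site, and the lack of one says only that these letters were not in that window.

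Values below are on the log2 scale of the table that the authors deposited, in which the libraries had been normalized. On a plain log2 scale 1 unit is a doubling. They are not scaled by gene length, so levels are compared between libraries and not between genes. The transform was not named, so whether it understates the differences of weak genes is not known. Folds given below are those of the deposited values. The depth of the libraries is unknown.

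The targeted gene was examined first. Top1mt was listed at 7.71, 5.99 and 8.01 for the 3 tumors labelled WT and at 5.58, 6.41 and 6.32 for the 3 labelled KO, in the order of their replicate numbers. The library labelled WT replicate 2 therefore lay below 2 of the 3 libraries labelled KO, and every direction given here rests on the labels. Markers of hepatocytes were high in all 6 libraries, with Alb at 20.3 to 21.1. KO replicate 1 stood apart from the rest on the first principal component (-73.0, against -21.9 to 37.2), and Gm42418 and Lars2 reached 22.0 and 20.1 in it. WT replicate 3 was next for both genes, with 15.8 and 12.7. The remaining libraries had 11.7 to 12.7 for Gm42418 and 8.44 to 9.05 for Lars2. The second component (20.7% of the variance) separated the genotypes, with 20.3 to 43.4 in WT and -9.91, -29.7 and -53.7 in KO replicates 1, 2 and 3. KO replicate 3 was thus the most extreme library on it. It was also the lowest library for 22.4% of all genes tested, the largest share of any library.

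All 10 genes had a higher mean in the Top1mt-KO tumors. The median log2 fold change of the 10 was 1.09, a little over a doubling, against -0.015 over all 22677 genes tested, and 6 of the 10 lay at or above 1, as did 1.55% of all genes. By limma with Benjamini-Hochberg adjustment over all genes, 0 of the 10 passed an adjusted p of 0.05, and so did 0% of all genes, with adjusted p from 0.987 to 0.999 for the members. At an unadjusted p under 0.05 there were 5 members (Asns, Ddit3, Ddit4, Ppp1r15a and Fgf21), against 4.34% of all genes. In 2 members, Asns and Ppp1r15a, every KO library lay above every WT library, which was so for 3.95% of all genes. With 1 library left out, the number without overlap was 5, 4 and 3 without WT replicates 1, 2 and 3 and 5, 6 and 2 without KO replicates 1, 2 and 3, against 7.32% to 9.75% of all genes. The direction of these counts was known when the genes were chosen, and nothing is read from them.

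**Figure D1:**
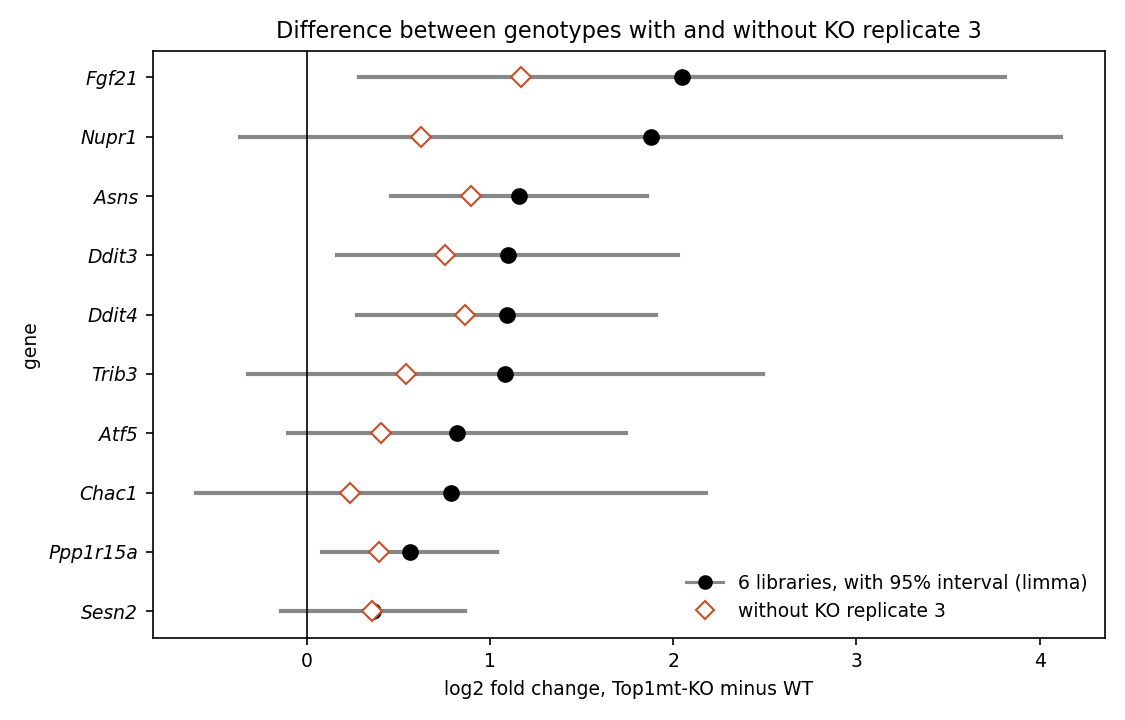
Log2 fold change of each of the 10 genes (Top1mt-KO minus WT, x axis), as filled points with 95% intervals from limma over 6 libraries and as open diamonds without KO replicate 3. All 10 points lie above 0, 5 of the 10 intervals reach below 0, and the diamond of Nupr1 falls to 0.63 from 1.88.

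Fgf21, the secreted hormone of the group, had the largest difference. Its log2 values were 6.06, 5.11 and 6.36 in WT and 6.31, 7.72 and 9.65 in KO replicates 1, 2 and 3. KO replicate 1 lay inside the WT range, KO replicate 2 lay above it, and KO replicate 3 stood 1.92 units above the next library. WT tumors averaged 5.84 ± 0.65 (SD, n = 3), and Top1mt-KO tumors averaged 7.89 ± 1.68 (SD, n = 3). This is a log2 fold change of 2.05 (SE 0.76, 95% interval 0.29 to 3.81), or 4.14-fold. Without KO replicate 3 it was 1.17, and without KO replicate 1 it was 2.84. Its standard deviation over the 6 libraries exceeded that of 99.5% of all genes tested.

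Asns and Chac1 act on amino acids. Asns makes asparagine from aspartate with the nitrogen of glutamine, and it is among the classic ATF4 targets. It had 8.96, 8.01 and 8.72 in WT and 9.57, 9.35 and 10.24 in KO. The lowest KO library lay above the highest WT library, with a log2 fold change of 1.16 (SE 0.30, 95% interval 0.46 to 1.86), and of the 10 genes Asns had the largest part of its variance between genotypes, 68.6%. Leaving out 1 library at a time gave 0.88 to 1.36.

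Chac1, which degrades glutathione, had 5.39, 4.04 and 5.26 in WT and 4.66, 5.60 and 6.78 in KO. The groups overlapped, since KO replicate 1 lay below WT replicates 1 and 3. The log2 fold change was 0.79 (SE 0.60, 95% interval -0.60 to 2.18), with 21.7% of the variance between genotypes, and it was 0.24 without KO replicate 3 and 1.30 without KO replicate 1.

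Ddit3, Trib3 and Nupr1 belong to the arm of the response linked to cell death. Ddit3 encodes CHOP, a C/EBP family factor that promotes death under unresolved stress. It had 7.94, 7.73 and 7.44 in WT and 9.13, 7.79 and 9.48 in KO. KO replicates 1 and 3 lay more than 1 unit above the WT range, and KO replicate 2 lay within it. The log2 fold change was 1.10 (SE 0.40, 95% interval 0.17 to 2.03).

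Trib3, a pseudokinase that binds ATF4 and AKT, had 8.08, 9.18 and 7.81 in WT and 9.73, 8.07 and 10.53 in KO. KO replicates 1 and 3 were again the highest, and KO replicate 2 lay below 2 of the WT libraries. The log2 fold change was 1.08 (SE 0.61, 95% interval -0.32 to 2.49), which was 0.54 without KO replicate 3 and 1.77 without KO replicate 2.

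Nupr1, a small nuclear protein induced by many stresses, had 5.70, 7.07 and 6.17 in WT and 7.41, 6.47 and 10.69 in KO. KO replicate 3 stood 3.29 units above the next library, and KO replicate 2 lay inside the WT range. Of all members it had the largest standard deviation, above that of 99.7% of all genes. Its difference of 1.88 on the log2 scale (SE 0.97, 95% interval -0.37 to 4.12) was 0.63 without KO replicate 3.

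Ppp1r15a encodes GADD34, which brings a phosphatase to eIF2α and so ends the response. It had 7.47, 7.26 and 7.26 in WT and 7.58, 7.87 and 8.23 in KO, with no overlap, although the lowest KO and the highest WT library were close. The difference was 0.56 log2 units (SE 0.21, 95% interval 0.09 to 1.04), 1.48-fold. Its standard deviation was ordinary for a gene of this table, above that of 47.9% of all genes.

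Atf5, a transcription factor related to ATF4 and tied to the mitochondrial unfolded protein response, had 10.40, 11.19 and 10.05 in WT and 10.93, 10.98 and 12.20 in KO. WT replicate 2 lay above 2 of the KO libraries. Its log2 fold change was 0.82 (SE 0.40, 95% interval -0.10 to 1.74), and it was 0.40 without KO replicate 3.

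Ddit4 and Sesn2 both restrain mTORC1, the kinase complex that couples growth to nutrients. Ddit4 had 8.43, 7.86 and 7.19 in WT and 8.38, 8.99 and 9.37 in KO, and only KO replicate 1 lay in the WT range. Its log2 fold change was 1.09 (SE 0.35, 95% interval 0.28 to 1.91). Sesn2 had 8.20, 7.85 and 7.44 in WT and 8.34, 8.03 and 8.21 in KO. It was the 1 member whose highest library was not KO replicate 3, and its log2 fold change, 0.36 (SE 0.22, 95% interval -0.14 to 0.87), was the smallest of the 10. Without WT replicate 3 the difference of Sesn2 was 0.17, and without WT replicate 1 it was 0.55.

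**Figure D2:**
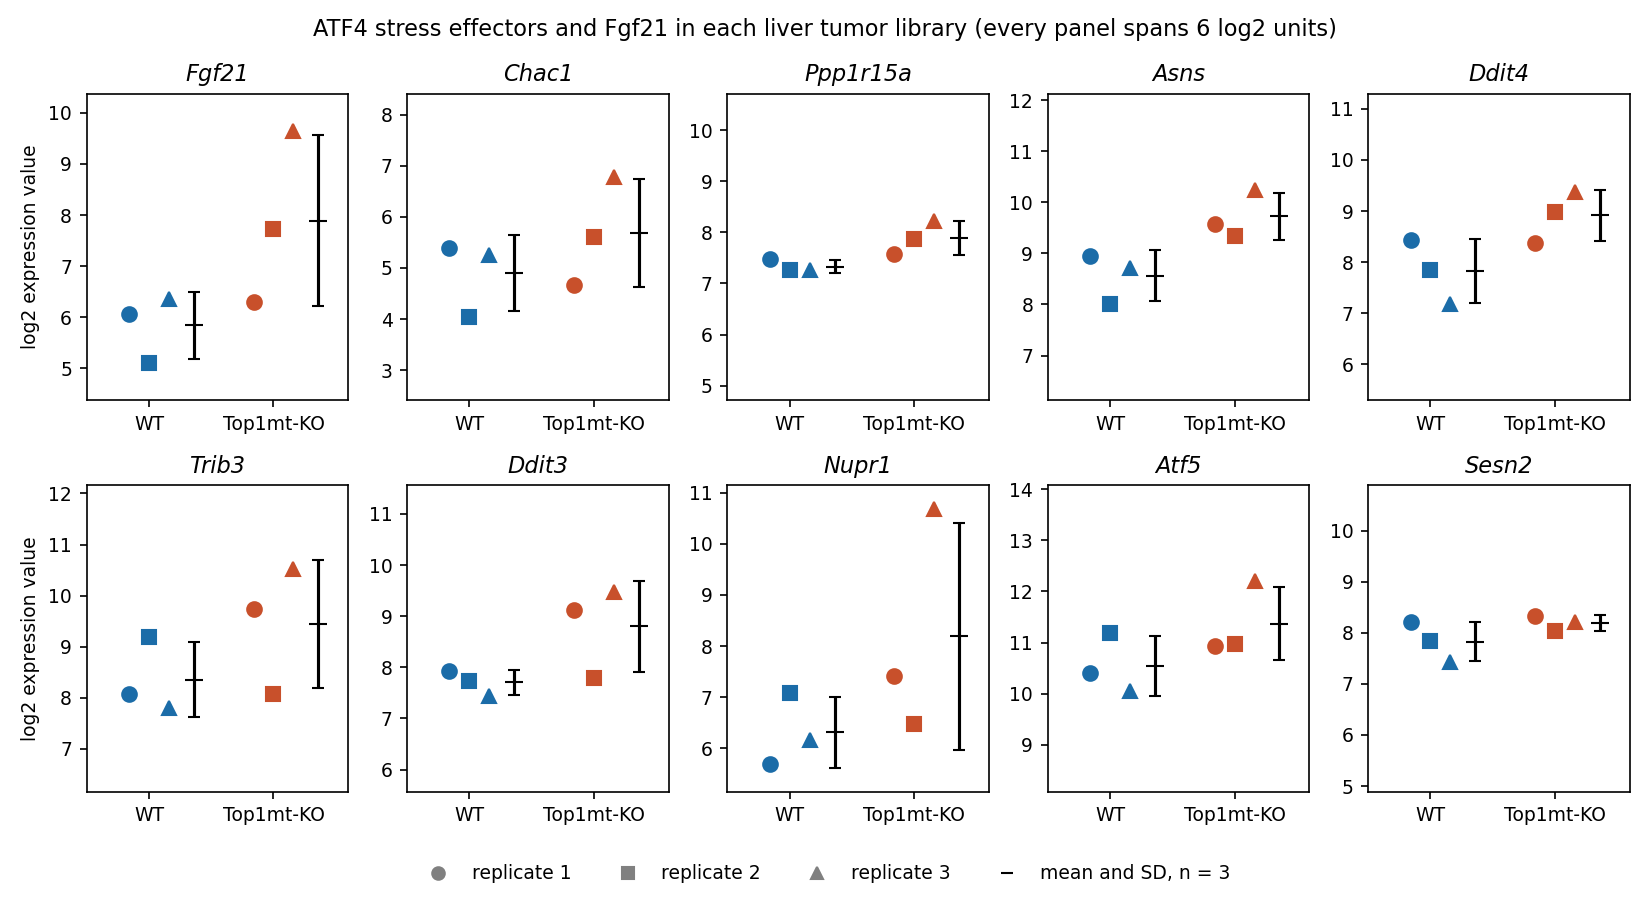
Log2 expression value of each of the 10 genes in the 3 WT (blue) and 3 Top1mt-KO (orange) libraries, with the marker shape giving the replicate and the black mark the mean and SD of 3. Each panel spans 6 units about the gene's own middle, so spreads but not levels can be compared between panels. KO replicate 3 (orange triangle) is the highest point in 9 of the 10 panels.

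KO replicate 3 was thus the highest library for 9 of the 10 genes, as it was for 16.1% of all genes tested. Its mean over the 10 centred genes (each gene set to its own mean over 6 libraries) was 1.47. KO replicates 1 and 2 had 0.14 and 0.022, and WT replicates 1, 2 and 3 had -0.40, -0.53 and -0.70. All 10 members lay above their own mean in KO replicate 3, 6 and 7 in KO replicates 1 and 2, and 3, 2 and 0 in the WT libraries. The median log2 fold change of the members was 0.58 without KO replicate 3 and between 0.58 and 1.20 over all leave-one-out fits.

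**Figure D3:**
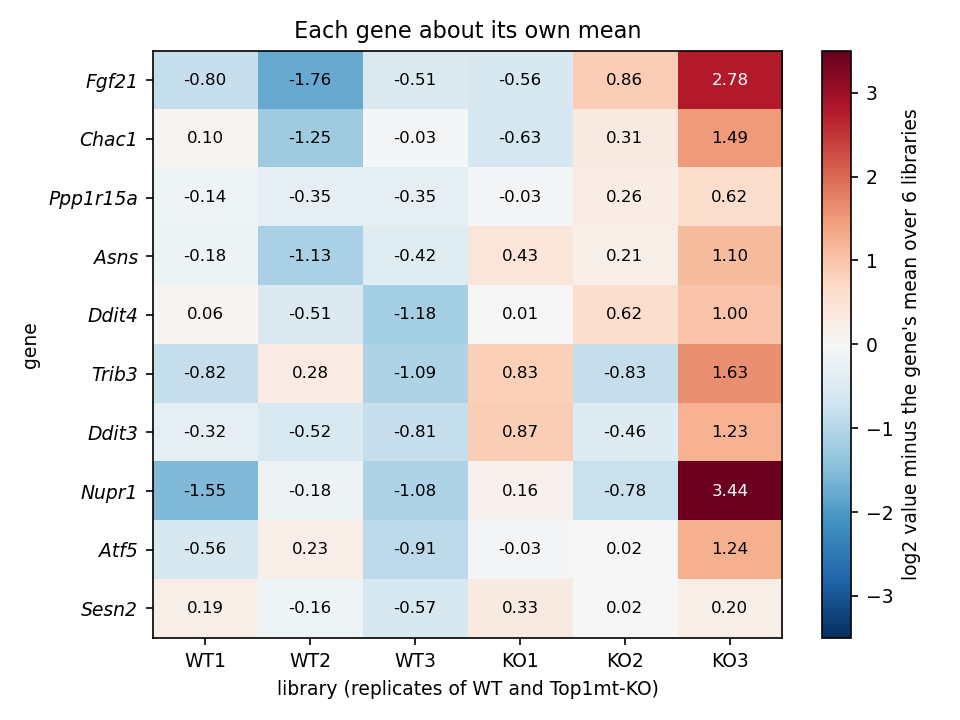
Each gene's log2 value minus its own mean over the 6 libraries (color and printed number), with genes in rows and libraries in columns. KO replicate 3 is above 0 for all 10 genes and reaches 3.44 for Nupr1 and 2.78 for Fgf21, WT replicate 3 is below 0 for all 10, and KO replicates 1 and 2 differ in sign for several genes.

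The 10 genes were next compared with each other across libraries. The libraries are shared by every pair, the difference between genotypes enters each correlation and was known when the genes were chosen, and no p is given. All 45 pairs had a Pearson r above 0 over the 6 libraries, with a median of 0.71 and a range of 0.22 to 0.95, and 38 pairs reached 0.5. The median over all pairs of genes tested was 0.001, and 6.18% of those pairs lay above 0.71. Spearman's rho gave a median of 0.60 (0.086 to 0.94).

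Once the mean of each genotype was removed, the median r of the members was 0.45, with 42 of 45 pairs above 0 and 23.3% of all pairs of genes above that median. These values leaned on a single library. Without KO replicate 3 the median over the remaining libraries was 0.39, the range was -0.79 to 0.91 and 35 pairs lay above 0, and the median within genotypes was 0.097.

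The genes fell into groups that differed in which libraries were high. Average linkage on the correlations within genotypes, cut at 3 clusters, put Asns, Ppp1r15a, Fgf21 and Chac1 together (the Fgf21 group), Ddit3, Nupr1, Atf5 and Trib3 together (the Trib3 group), and Ddit4 with Sesn2. The clusters were formed from the values they describe, so they are not tested. Over the 6 libraries r was 0.80 to 0.95 inside the Fgf21 group and 0.74 to 0.91 inside the Trib3 group, and 0.25 to 0.82 between the groups. Within genotypes the same ranges were 0.66 to 0.96, 0.54 to 0.87 and -0.0069 to 0.62. With the genotype means left in, Ddit4 joined the Fgf21 group and Sesn2 stood alone.

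The groups differed mainly in WT replicate 2 and in the order of KO replicates 1 and 2. The mean of the Fgf21 group was lowest in WT replicate 2, at -1.12, while that of the Trib3 group was -0.046 there, the highest of the WT libraries. KO replicate 1 had -0.20 and KO replicate 2 had 0.41 for the Fgf21 group, and this order was turned in the Trib3 group, with 0.46 and -0.51. KO replicate 3 was the highest library of both groups, at 1.50 and 1.88. The promoter element TGATGNAA was found on both sides, in Asns, Fgf21 and Chac1 and in Nupr1 and Trib3.

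Single pairs show how far each relation rested on the extreme libraries. Fgf21 and Chac1 had r = 0.93 over 6 libraries (rho 0.83), 0.96 within genotypes, 0.81 without KO replicate 3 and 0.78 without KO replicates 2 and 3, the libraries farthest from the median of Fgf21. Nupr1 and Trib3 had 0.90 (rho 0.83), 0.85 within genotypes and 0.90 without KO replicate 3. Both pairs therefore kept a high r without the highest library.

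Ppp1r15a and Fgf21 had the highest r of all 45 pairs, 0.95, with 0.91 within genotypes and 0.84 without KO replicate 3, but a rho of 0.66 and an r of 0.46 without KO replicates 2 and 3. Ddit3 and Trib3 had 0.90 over 6 libraries (rho 0.83), 0.86 within genotypes and 0.78 without KO replicate 3. Without KO replicates 1 and 3 together they had 0.21. Ddit3 then ran only from 7.44 to 7.94, a narrow range in which r says little. Ddit4 and Ppp1r15a had 0.93 (rho 0.94), and 0.97 without KO replicate 3 and WT replicate 3.

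Of the 16 pairs across the groups, 9 had an r below 0 when KO replicate 3 was left out and 7 stayed above 0. Trib3 and Chac1 went from 0.25 to -0.79, Nupr1 and Chac1 from 0.59 to -0.73, Fgf21 and Trib3 from 0.47 to -0.44, and Fgf21 and Nupr1 from 0.76 to -0.22. Asns and Ddit3 had 0.82 over 6 libraries and kept 0.63. In those 5 libraries the highest value of Chac1 was that of KO replicate 2, where Trib3 was next to lowest.

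**Figure D4:**
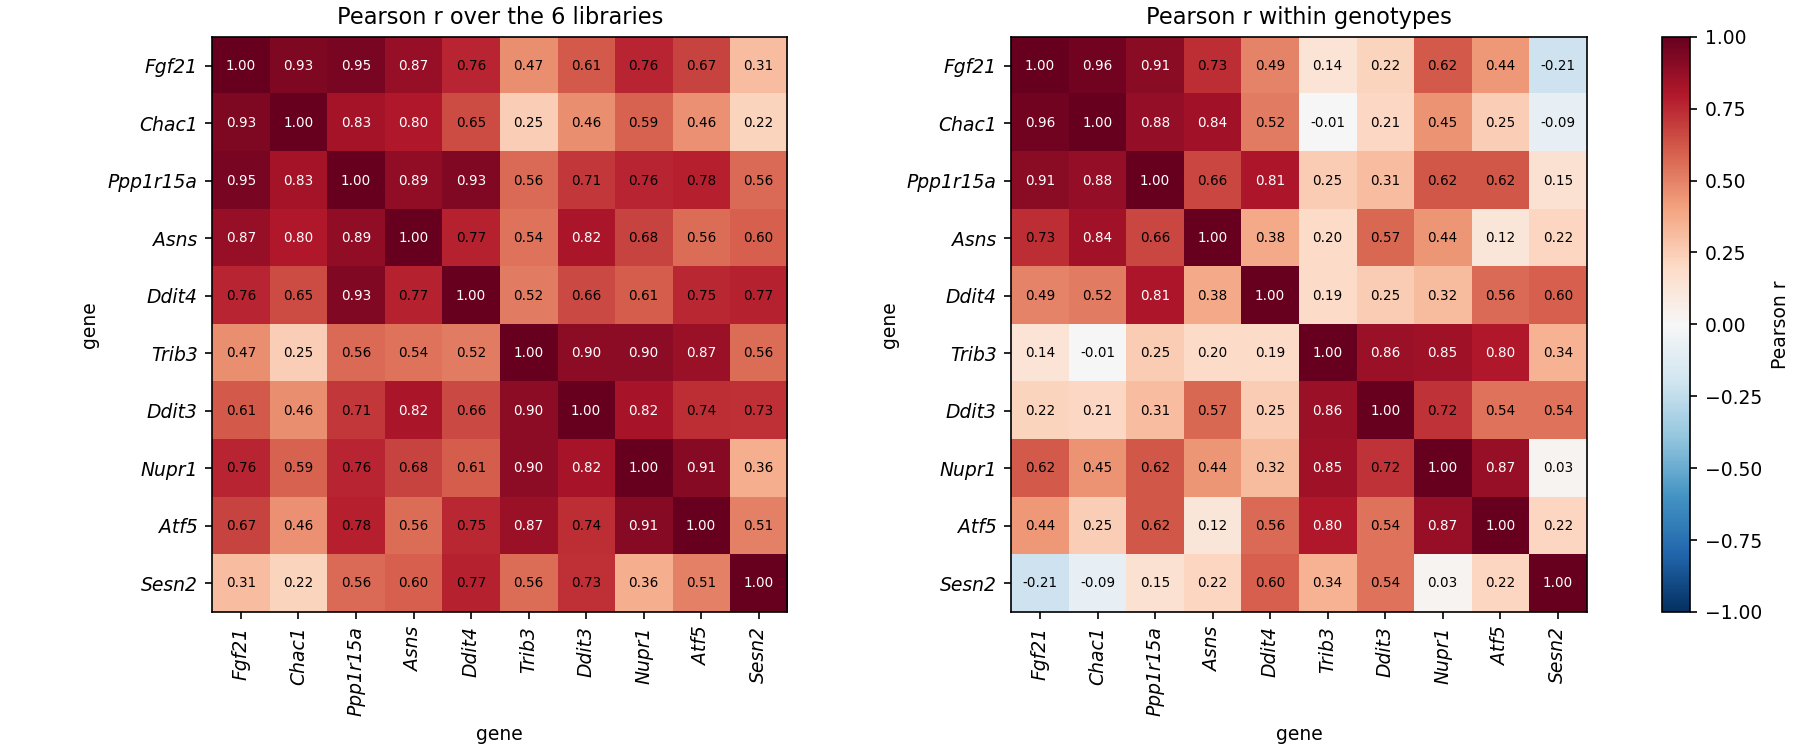
Pearson r for each pair of the 10 genes over the 6 libraries (left) and after the mean of each genotype was removed (right), with the value printed in each cell. Darker blocks, Fgf21 to Asns and Trib3 to Atf5, are visible on both sides, and the cells between them are paler on the right, where Trib3 and Chac1 have -0.01.

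Upstream of these genes, the kinases of eIF2α and Atf4 had log2 fold changes between -0.19 and 0.31. Atf4 had 10.20, 10.68 and 10.93 in WT and 10.78, 10.85 and 11.05 in KO, with WT replicate 3 above 2 of the KO libraries and a log2 fold change of 0.29 (SE 0.20). It was 0.084 without WT replicate 1 and 0.45 without WT replicate 3. Of the kinases, Eif2ak3 (PERK, which senses unfolded protein in the endoplasmic reticulum) had 0.31, Eif2ak4 (GCN2, which senses uncharged tRNA) 0.098, Eif2ak1 (HRI, the haem-regulated kinase) -0.016 and Eif2ak2 (PKR, which senses double-stranded RNA) -0.19. All 5 genes overlapped between genotypes, and 0 passed the adjusted threshold or an unadjusted p under 0.05 in limma. Activity of these kinases and the amount of ATF4 protein are not measured by RNA.

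Other ATF4 targets were counted from lists written by hand. Of 18 targets in amino acid and one-carbon metabolism, 12 had a higher and 6 a lower mean in KO, with a median log2 fold change of 0.13 (0.00071 without KO replicate 3), and 0 passed the adjusted threshold or an unadjusted p under 0.05 in limma. The largest differences were those of Aldh18a1 (proline synthesis, 0.86) and Mthfd2 (the mitochondrial folate enzyme, 0.86). Mthfd2 had 7.22 and 7.14 in KO replicates 2 and 3 but 5.78 in KO replicate 1, within the WT range of 5.64 to 6.17.

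Of 23 further targets and partners, 19 had a higher and 4 a lower mean, with a median of 0.16. In limma 0 passed the adjusted threshold and 5 had an unadjusted p under 0.05, which 4.34% of all genes had. The largest differences were those of Vldlr (a lipoprotein receptor, -1.15) and Atf3 (a stress-induced repressor of the same family, 0.91). Atf3 had 8.93 in KO replicate 3 and 6.19 to 6.73 in the other 5 libraries, and without KO replicate 3 its log2 fold change was 0.14.

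The groups did not overlap for 4 of these 23 genes, which are named here after their values were seen. Cars and Iars, which charge tRNA with cysteine and isoleucine, were higher in KO by 0.64 and 0.46. Cebpb (a C/EBP partner of ATF4) and Ppp1r15b (the constitutive counterpart of Ppp1r15a) were lower, with -0.84 and -0.27. Of all genes tested, 3.95% lay higher in every KO library and 4.33% lower. Gdf15, a secreted stress hormone often listed beside Fgf21, was also looked up after the fact and had 6.44, 5.12 and 6.10 in WT and 6.35, 5.60 and 6.70 in KO, with overlap.

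Programs that share genes with the integrated stress response were set beside it. Of 14 targets of XBP1 and ATF6, the other arms of the unfolded protein response, 3 had a higher and 11 a lower mean in KO (median -0.035), with Creld2 (-0.27) and Xbp1 (-0.25) differing most. The order of the libraries was not that of the members. KO replicate 1 was the highest library for 9 of the 14 and KO replicate 2 the lowest for 12, with list means of 0.56 and -0.56, and KO replicate 3 had -0.079.

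Fgf21 is also induced by the fasting receptor PPARA, and its 14 other targets had 5 higher and 9 lower means (median -0.10, largest for Vnn1, 0.67, and Pdk4, 0.64). Their list mean was -0.057 in KO replicate 3, where Fgf21 was highest, and 1 of the 14 was also highest there, Pdk4 at 8.21. The part of PPARA in the values of Fgf21 was not tested. Sesn2 and Ddit4 are also known as p53 targets, and of 12 others 4 had a higher and 8 a lower mean (median -0.13, largest for Cdkn1a, 0.94, and Gtse1, -0.86). Ddit4 is further induced by glucocorticoids, whose 11 other targets had 6 higher and 5 lower means (median 0.032). The largest differences were those of the metallothioneins Mt2 (1.24) and Mt1 (0.80). Per1 and Pck1, looked up after the fact, were among the lower ones, with -0.80 and -0.50. Without 1 library, Pdk4 fell to 0.32 (WT replicate 2), Gtse1 had -0.32 (KO replicate 2) and Cdkn1a had 1.44 (WT replicate 1). Of the 21 named genes outside the 10, 20 moved by over 1.5 times or changed sign in this way.

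Of 9 targets of NRF2, the regulator of antioxidant genes, 3 had a higher and 6 a lower mean (median -0.11). KO replicate 3 had the lowest list mean, -0.94, with Nqo1 at 5.76 against 7.44 to 9.65 elsewhere and Gsta1 at 6.04 against 7.86 to 10.40. The log2 fold changes of Nqo1 and Gsta1, -0.82 and -0.77, were 0.17 and 0.43 without KO replicate 3. Of 8 markers of mitochondrial protein stress, of which Atf5 is a member here, 4 had a higher and 4 a lower mean (median -0.0061), with Atf5 and Hspa9 (a mitochondrial chaperone, 0.24) differing most. In these 5 lists and the mitochondrial one, 0 genes passed the adjusted threshold in limma, and 1 gene in all, Vnn1, had an unadjusted p under 0.05.

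The mean of the members was then set against each list over the 6 libraries. Its r was 0.82 for the further ATF4 targets, 0.76 for the amino acid targets and 0.69 for the kinases and Atf4. The 7 mitochondrial markers other than Atf5, which is a member, had 0.35. The r of the members' mean was -0.049 for XBP1 and ATF6 targets, -0.018 for PPARA, 0.055 for p53, 0.037 for glucocorticoid and -0.58 for NRF2 targets. The amino acid and NRF2 lists share Slc7a11, looked up after the fact, which was not taken out of either. It was lowest in KO replicate 3, at 5.12 against 6.52 to 9.82 elsewhere. Without KO replicate 3 the ATF4 lists had 0.59 and 0.44, the kinases and Atf4 0.46, the mitochondrial markers other than Atf5 0.14 and the glucocorticoid list 0.49. The NRF2, PPARA, XBP1 and ATF6, and p53 lists then had 0.22, 0.16, 0.12 and 0.083, so the ATF4 lists did not stand apart from the glucocorticoid list. Marker lists of other cell types had r as large over the 6 libraries, with 0.79 for endothelial, 0.71 for B cell and -0.71 for bile duct markers (0.59, -0.65 and -0.86 without KO replicate 3). The members' mean and Atf4 mRNA had r = 0.49, and 0.11 without KO replicate 3.

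The Fgf21 and Trib3 groups were also set against the lists, after their values were seen. The Fgf21 group had r = 0.86 with the amino acid targets, and 0.70 to 0.89 with 1 library left out. The Trib3 group had 0.52, which was -0.24 without KO replicate 3. With the kinases and Atf4 the order was turned, with 0.87 for the Trib3 group (0.86 to 0.91 with 1 library left out) and 0.39 for the Fgf21 group (-0.23 without KO replicate 3). Other lists had r as large. The Trib3 group had -0.83 with NRF2 targets (-0.94 to -0.61 with 1 library left out) and -0.79 with bile duct markers (-0.93 to -0.74). The Fgf21 group had 0.81 with endothelial markers (0.63 to 0.91). The list mean of the kinases and Atf4 ran only from -0.12 to 0.10. With those of the members' mean above, these r belong to 60 correlations computed between 3 scores and 20 lists and genes, each over 6 libraries.

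Genes with the most similar profiles were taken from the 11330 genes with a standard deviation at or above the median. The 5 nearest to the mean of the 10 members were B3galt1 (r = 0.99), Dtx4 (0.99), Atoh8 (0.98), Hmces (0.98) and Shc2 (0.97), and 26 genes exceeded 0.95. For Fgf21 they were Gm11437 (0.997), Gm11454 (0.99), Asap2 (0.99), Gm9929 (0.98) and C1qtnf4 (0.98). For Ddit3 they were Gm9530 (0.98), Gm25632 (0.98), D830026I12Rik (0.97), Gm11203 (0.97) and Reep4 (0.97), of which Gm25632, D830026I12Rik and Gm11203 had values near the bottom of the scale, at most 1.21. These ranks were not stable. With 1 library left out, 0 to 3, 0 to 2 and 0 to 1 of the 5 genes were among the 5 nearest again.

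Markers of other cell types were read beside the members, since in bulk tissue fewer cells of a type and less RNA per cell cannot be told apart. All 4 B cell markers were highest in KO replicate 3, whose list mean was 1.0 against -0.61 to 0.060 in the other libraries. All 5 endothelial markers had a higher mean in KO, with a list mean of 0.21 in KO replicate 3, -0.042 and 0.076 in KO replicates 1 and 2, and -0.19 to 0.093 in WT. The list mean of 5 bile duct markers was -0.92, -0.16 and -0.68 in KO and 0.68, 0.022 and 1.06 in WT. These markers disagreed, as 3 had a lower mean in KO (log2 fold changes -2.68 to -1.19) and 2 a slightly higher one (0.045 and 0.15). The 4 neutrophil markers were lower in KO, with a median log2 fold change of -1.07 and list means of -0.90 to -0.010 in KO and -0.31 to 1.42 in WT.

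Lists for hepatocytes, with 7 of 8 markers found, ranged from -0.33 to 0.41 in KO and -0.26 to 0.27 in WT. Those for macrophages ranged from -0.30 to 0.40 and -0.54 to 0.81, those for T and NK cells from -0.33 to 0.077 and -0.35 to 0.43, and those for stellate cells and fibroblasts from -1.02 to 0.55 and -0.39 to 0.85. The lowest value of any marker was that of the neutrophil gene Ly6g, 0.50 in WT replicate 1. Ly6g was also near the bottom of the scale in KO replicates 1, 2 and 3, at 0.79, 0.57 and 1.27, and it enters the neutrophil list means and median. The part of these cell types in the differences of the 10 genes was not tested.

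Exons of 3 members overlap a gene on the opposite strand. The library kit marks strand, but the setting used in counting is not given in the sources used here, so reads of the partners cannot be told apart. Ddit3 overlaps Mars and Gm4189, and r over the 6 libraries was 0.065 and 0.0099. Ppp1r15a overlaps Tulp2, with r = 0.13. Atf5 overlaps Il4i1 and Nup62. Il4i1 had 5.12 to 6.13 with r = 0.63, and Nup62 was not analysed here.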

How the data were processed

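RNA-seq of 6 mouse liver tumors (3 WT, 3 Top1mt-KO) was used, grouped by sample title. The deposited table holds the authors' log2 value of each gene symbol, and the values run from -2.24 to 22.0. The study's methods name Trimmomatic, BWA with a mouse genome called Mm 8, featureCounts and DESeq2, whereas the submitters' processing notes name Trimmomatic 0.36, STAR 2.5.1, Subread, DESeq2 and GRCm38, so the aligner and build are not settled here. The log2 transform and the strand setting of counting are not given in the sources used here. Counts could not be recovered, so no count model was run and depth is unknown. The values fix no detection limit, so precision is set by 3 libraries per group. The 3 columns without a name were not used, and there were 0 further columns of per-sample values.

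The comparison of KO with WT used limma 3.58.1 (R 4.3.3; lmFit, eBayes with trend, Benjamini-Hochberg adjustment). Genes in the lowest 25% by mean were left out, and an adjusted p under 0.05 counted as passing. An exact permutation test of 3 against 3 cannot give a two-sided p below 0.1 and was not used. Correlations were computed with numpy 2.4.6 and scipy 1.17.1 and describe the libraries. The procedure was checked on simulated data.

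The members and the gene lists were chosen with earlier results of these data known. Genes named are the members, Top1mt, the upstream kinases and Atf4, and of each list the 2 with the largest absolute log2 fold change. Others are said to have been named after their values were seen. Promoters and coordinates came from RefSeq (GRCm38.p6), in which all 10 members matched and Atf5 had more than 1 window. Alternatives were limma without trend, quantile normalization, centring on the median, Spearman's rho, omission of the filter or a stricter one at the median, leaving out each library, and a replicate block.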

Additional observations from a re-analysis of the deposited data

How the results depend on the processing

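All 10 members kept a higher mean in KO under each of 12 other settings of the limma fit, and their smallest adjusted p was 0.524. Omitting the trend, changing the filter or adding the replicate block does not alter a log2 fold change. Those settings could therefore not turn a direction, which was also known when the genes were chosen. Over all genes, 0 passed the threshold in limma (985 at an unadjusted p under 0.05). With no filter 4 passed, and with 1 library left out 0 to 1, the 1 without KO replicate 1. With the replicate block 0 passed (912 unadjusted), and no call changed. Deviations of same-numbered libraries from their genotype means correlated at -0.12, -0.076 and 0.052. These weak values do not settle whether libraries were paired by number, by litter or by batch.

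With 1 library left out, the members' median log2 fold change was 0.58 to 1.20, the median r of pairs 0.39 to 0.78 and that within genotypes 0.097 to 0.68, each lowest without KO replicate 3. The median was 0.035 to 0.19 for the kinases and Atf4, 0.12 to 0.31 for the further ATF4 targets -0.29 to 0.24 for glucocorticoid targets, 0.00071 to 0.21 for amino acid targets, -0.29 to 0.23 for XBP1 and ATF6 targets, -0.31 to 0.15 for PPARA targets, -0.24 to -0.0073 for p53 targets, -0.44 to 0.17 for NRF2 targets and -0.085 to 0.050 for mitochondrial markers.

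Of 31 named genes 6 reversed. Eif2ak1 became 0.038 with each library centred on its median, and ranged from -0.10 to 0.063 with 1 library left out. In the same fits Eif2ak4 ranged from -0.035 to 0.19, Creld2 from -0.77 to 0.16, Xbp1 from -0.44 to 0.011, Nqo1 from -1.57 to 0.17 and Gsta1 from -1.72 to 0.43. The cause was not tested. With 3 libraries a genotype and unknown depth, a log2 fold change of 2.05 (Fgf21) did not pass the threshold.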
